A study of Arabidopsis thaliana with 6 samples.

Results

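Stomata, the pores of the leaf surface, are kept apart by a short-range signal between epidermal cells, and 8 Arabidopsis thaliana genes of that signal were described here. They were chosen by locus: the receptor genes TMM (AT1G80080), ER (AT2G26330), ERL1 (AT5G62230) and ERL2 (AT5G07180), the peptide genes EPF1 (AT2G20875), EPF2 (AT1G34245) and EPFL9 (AT4G12970), and the protease gene SDD1 (AT1G04110). All 8 were among the 33602 loci counted and among the 18174 that passed the filter on low counts. TMM stands for the gene TOO MANY MOUTHS throughout.

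RNA was sequenced from cells sorted from true leaves of 3 transgenic lines in the Columbia ecotype, 9 days post germination, with 2 libraries per line. The lines carried myrBRXp:myrBRX-YFP (myrBRX below), BRXL2p:BRXL2-YFP (BRXL2) or BRXp:BRX-YFP (BRX), each a YFP fusion named after the polarity gene BRX or its relative BRXL2. The series calls the sorted cells stomatal lineage ground cells, the larger daughters of asymmetric divisions in this lineage, and about 20000 cells went into each library. Neither the sorting gate nor the number of independent lines or plants per library was given in the sources used here, and no untransformed control was analysed here.

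In this signal EPF1 and EPF2 are small secreted peptides that restrain stomatal formation. EPF2 acts early, on the cells that enter the lineage, and EPF1 acts later, on the placing of further divisions near an existing precursor. ER, ERL1 and ERL2 are receptor kinases that bind these peptides, and TMM is a receptor-like protein without a kinase that works with them. EPFL9, also called stomagen, is made in the mesophyll below the epidermis and competes with EPF2 to promote stomata. SDD1 is a subtilisin-type protease of stomatal precursors that lowers stomatal density. Receptor activity runs through the YODA MAP kinase cascade and ends in the loss of SPCH, the transcription factor that starts the lineage.

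The libraries held 39085068 and 41096714 counts for myrBRX, 35981786 and 42113178 for BRXL2, and 25817906 and 35490278 for BRX. BRX itself stood at 52.5 ± 28.5 CPM in myrBRX, 27.3 ± 6.45 in BRXL2 and 8.92 ± 3.98 in the libraries labelled BRX (SD, n = 2 each; CPM scales counts to a common library size, adjusted for composition), which goes against the label, so these are called the libraries labelled BRX. The gene BRXL2 stood highest in the line of its own label, at 1570 and 1378 CPM. It was at 150.1 and 95.5 CPM in the libraries labelled BRX, and at 21.5 and 12.6 CPM in myrBRX. Reads of a construct and of the plant's own gene are counted together. SPCH, BASL and POLAR, markers of the stomatal lineage, had counts in all 6 libraries, as had the 5 listed epidermis markers. MUTE, a marker of the step after the self-renewing stage, held 3 and 2 counts in myrBRX, 629 and 416 in BRXL2, and 25 and 0 in the libraries labelled BRX. The phloem genes APL and BAM3, which mark another tissue, held at least 1388 counts in each BRXL2 library and at most 17 in the other 4. SUC2, of the same list, ran the other way by mean, with 95 and 312 counts in myrBRX, 48 and 115 in BRXL2, and 330 and 63 in the libraries labelled BRX. In bulk RNA of this kind, fewer cells of a type and less RNA per cell cannot be told apart.

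None of the 8 genes passed an adjusted p of 0.05 in any comparison (edgeR quasi-likelihood test, Benjamini-Hochberg over 18174 loci). For myrBRX against the libraries labelled BRX the background was 0% of loci called. It was 0.0495% for myrBRX against BRXL2 and 0.0935% for BRXL2 against the libraries labelled BRX. At an unadjusted p under 0.05 the members were 3 of 8 (ER, ERL2 and SDD1), 1 of 8 (SDD1) and 1 of 8 (EPF1) in these comparisons, where 14.2%, 12.4% and 8.85% of all loci lay. DESeq2 called 2 (ER and SDD1), 1 (SDD1) and 1 (EPF1), against 8.07%, 6.32% and 3.54% of all loci it tested, and limma-voom called 0 in each. The test for any difference among the 3 lines called none either, where 0.226% of loci were called, with SDD1 at an adjusted p of 0.168, ER at 0.267 and EPF1 at 0.271 by edgeR. In that test 3 of 8 members lay at an unadjusted p under 0.05, against 14.6% of all loci, and DESeq2 called 3 (ER, EPF1 and SDD1), against 8.67%. The p-values measure only the spread between these libraries, which may be technical, since the labels do not say that they came from separate cultures or plants.

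**Figure D1:**
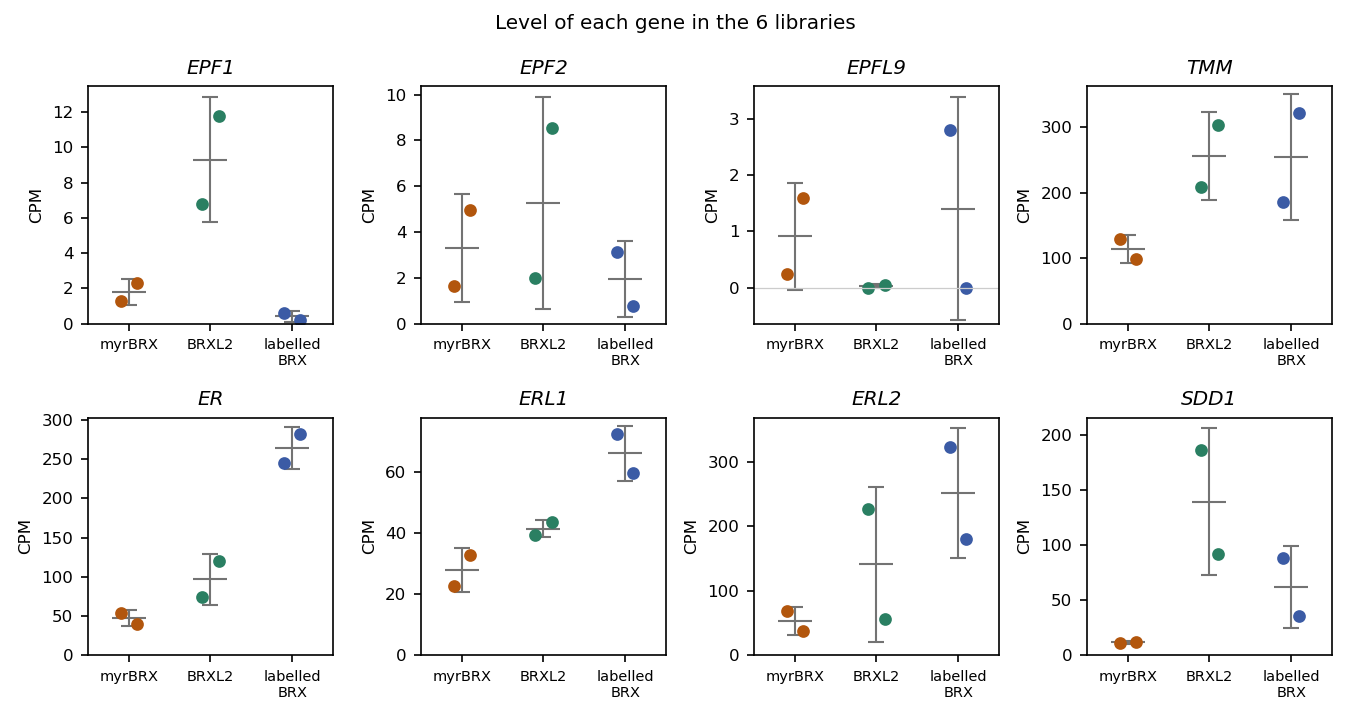
CPM of the 8 genes in each library, on linear axes of different range; points are libraries and grey bars the mean ± SD of 2. By mean the receptor genes and SDD1 were lowest in myrBRX, and EPF1 was highest in BRXL2. ER and ERL1 ran in the order myrBRX, BRXL2, libraries labelled BRX with no overlap. On total counts, ERL1 and SDD1 overlapped between BRXL2 and the libraries labelled BRX.

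Of the 2 inhibitory peptide genes, EPF1 was highest in BRXL2. EPF1 stood at 1.26 and 2.29 CPM in myrBRX, at 6.78 and 11.8 CPM in BRXL2, and at 0.610 and 0.198 CPM in the libraries labelled BRX. The 3 lines did not overlap, although the last values rest on 20 and 6 counts. The log2 fold change was 4.51 ± 1.49 for BRXL2 against the libraries labelled BRX (SE; 95% interval 1.25 to 7.76 for this gene alone; adjusted p = 0.431, edgeR). With DESeq2 the adjusted p was 0.0108, and over all alternatives it ran from 0.0108 to 0.810. With a library left out, that fold change ran from 3.92 (without BRX 2) to 5.53 (without BRX 1). EPF1 had 2.13 ± 1.36 for myrBRX against the libraries labelled BRX (adjusted p = 0.478), running from 1.55 (without BRX 2) to 3.15 (without BRX 1), and -2.38 ± 1.35 for myrBRX against BRXL2 (0.495), running from -2.88 (without myrBRX 2) to -1.92 (without BRXL2 2).

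EPF2, the early peptide, differed within lines by more than its fold changes between them. It held 1.625 and 4.95 CPM in myrBRX, 2.00 and 8.54 CPM in BRXL2, and 3.11 and 0.760 CPM in the libraries labelled BRX. All 3 lines overlapped, and the widest gap between libraries of a line was 2.07 on the log2 scale, in BRXL2. The log2 fold changes of EPF2 were 0.76 ± 1.43 for myrBRX against the libraries labelled BRX, -0.68 ± 1.43 for myrBRX against BRXL2, and 1.44 ± 1.45 for BRXL2 against the libraries labelled BRX (adjusted p from 0.836 to 0.888, edgeR). With a library left out, the first ran from -0.28 (without myrBRX 2) to 2.11 (without BRX 1). The second ran from -1.70 (without myrBRX 2) to 0.73 (without BRXL2 2), and the third from 0.04 (without BRXL2 2) to 2.79 (without BRX 1). The 95% intervals of all 3 ran past 2 doublings on at least 1 side, the first from -2.36 to 3.88. A difference of that size between lines was therefore not excluded by these libraries.

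The balance of the 2 inhibitory peptides needs no scaling between libraries. EPF1 made up 43.8% and 31.7% of the counts of both genes in myrBRX (exact binomial 95% intervals 33.6 to 54.3% and 26.2 to 37.5%). The share was 77.2% and 58.0% in BRXL2 (72.9 to 81.2% and 54.4 to 61.6%). It was 16.4% and 20.7% in the libraries labelled BRX (10.3 to 24.2% and 7.99 to 39.7%). EPF1 was thus the more counted peptide in both BRXL2 libraries, EPF2 in the other 4, and the lines did not overlap, although the interval of BRX 2, on 29 counts in all, reached those of both myrBRX libraries. Intervals and floors here cover counting error only and treat each read as independent. Several reads can come from 1 amplified molecule, so the counting error may be larger than they show. This share was chosen after the values were seen and has no test.

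EPFL9, the peptide of the mesophyll, was scarce. It held 8 and 61 counts in myrBRX, 0 and 2 in BRXL2, and 92 and 0 in the libraries labelled BRX, or 0.241 and 1.59, 0 and 0.0535, and 2.81 and 0 CPM. A library with 0 counts allows up to 0.0638 CPM (BRXL2 1) or 0.0992 CPM (BRX 2), from a floor of 3 counts. One library of the myrBRX pair and one of the pair labelled BRX carried most of its counts. On counts pooled per line, the ratio of myrBRX to BRXL2 was 40.6 (counting interval 11.3 to 335.6). That of BRXL2 to the libraries labelled BRX was 0.0162 (0.00197 to 0.0586). These intervals cover counting error in the 2 counts of BRXL2 alone, not the difference between libraries of a line, and BRX 2 held 0 counts. The fitted log2 fold change of BRXL2 against the libraries labelled BRX, -5.59 ± 3.07, was 3.12 without BRX 1. That of myrBRX against the same libraries, -0.62 ± 2.48, was 8.10 without BRX 1 and 0.19 without myrBRX 1. None of these passed (adjusted p = 0.52 to 0.93, edgeR). The 5 mesophyll markers together stood at 235 and 260 CPM in myrBRX, 716 and 485 in BRXL2, and 924 and 348 in the libraries labelled BRX, and none of them was at 0 in any library. RBCS1A made up most of that sum in each library, at 174 and 198 CPM, 627 and 376, and 849 and 319. By mean RCA, CAB3 and LHCB2.1 were highest in BRXL2, and CA1, like EPFL9, was lowest there. The part of mesophyll cells in the EPFL9 values was not tested.

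**Figure D2:**
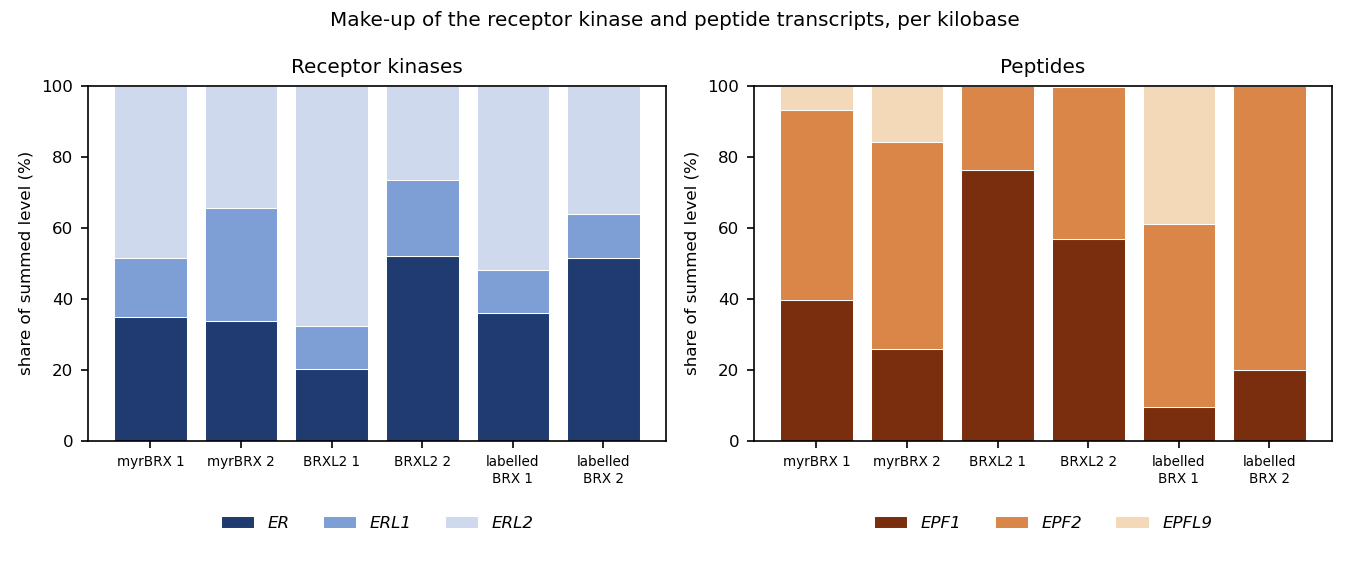
Share (%) of each receptor kinase gene (left) and each peptide gene (right) in the summed level per kilobase of exon, for each library. ERL1 took the smallest share of the kinases in every library, and EPF1 was the largest part of the peptides in both BRXL2 libraries, at 76.4% and 56.8%, and EPF2 in the other 4.

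Among the receptors TMM, the partner without a kinase, was the most abundant transcript per kilobase of exon. By CPM it was not the highest in every library. TMM held 129.6 and 98.6 CPM in myrBRX, 208 and 303 CPM in BRXL2, and 186 and 322 CPM in the libraries labelled BRX. Both myrBRX libraries lay below the other 4, while BRXL2 and the libraries labelled BRX overlapped. The log2 fold change of TMM was -1.15 ± 0.80 for myrBRX against the libraries labelled BRX (adjusted p = 0.513), -1.16 ± 0.80 for myrBRX against BRXL2 (0.583) and 0.01 ± 0.79 for BRXL2 against the libraries labelled BRX (1; edgeR). The last had a 95% interval of -1.71 to 1.73, and it was -0.33 without BRX 1, -0.29 without BRXL2 2 and 0.46 without BRX 2.

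ER, the founding receptor kinase of the family, ran through the lines in steps. Its level was 53.9 and 39.6 CPM in myrBRX, 73.5 and 119 CPM in BRXL2, and 246 and 283 CPM in the libraries labelled BRX. No line overlapped another. For myrBRX against the libraries labelled BRX the log2 fold change of ER was -2.50 ± 0.80 (95% interval -4.25 to -0.75; adjusted p = 0.246, edgeR), with an adjusted p of 0.0189 by DESeq2 and 0.0189 to 0.933 over all alternatives. Leaving out one library moved that fold change only between -2.73 and -2.28. It was -1.05 ± 0.77 for myrBRX against BRXL2 (adjusted p = 0.614) and -1.45 ± 0.78 for BRXL2 against the libraries labelled BRX (0.615).

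ERL1, a close relative of ER, kept the same order at a lower level and with smaller differences. It stood at 22.6 and 32.8 CPM in myrBRX, 39.4 and 43.5 CPM in BRXL2, and 72.4 and 59.8 CPM in the libraries labelled BRX. The lines again did not overlap on this scale. On total counts, not adjusted for composition, BRXL2 and the libraries labelled BRX did, at 45.0 ± 9.09 and 71.4 ± 29.0 CPM (SD). The log2 fold changes of ERL1 were -1.25 ± 0.74, -0.58 ± 0.73 and -0.67 ± 0.73 for myrBRX against the libraries labelled BRX, myrBRX against BRXL2, and BRXL2 against the libraries labelled BRX (adjusted p = 0.445, 0.786 and 0.858, edgeR). In the TAIR10.1 annotation the end of ERL1 overlaps AT5G62240 on the other strand, and the strand setting of the counting was not given. That neighbour stood at 1.74 to 7.64 CPM in the 6 libraries, below ERL1 in each.

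ERL2, the third kinase gene, depended on the library. It held 68.1 and 37.0 CPM in myrBRX, 226 and 55.2 CPM in BRXL2, and 323 and 180.0 CPM in the libraries labelled BRX. BRXL2 spanned the gap between the other lines, with its first library above BRX 2 and its second below myrBRX 1. The log2 fold change of ERL2 was -2.26 ± 0.92 for myrBRX against the libraries labelled BRX (95% interval -4.26 to -0.25; adjusted p = 0.311, edgeR). For myrBRX against BRXL2 it was -1.42 ± 0.90 (adjusted p = 0.543), and ran from -2.10 (without BRXL2 2) to -0.07 (without BRXL2 1). For BRXL2 against the libraries labelled BRX it was -0.84 ± 0.89 (0.852), and ran from -2.18 (without BRXL2 1) to -0.15 (without BRXL2 2).

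The sum of the epidermis markers and the share of chloroplast and mitochondrial counts ran in the same order of lines as ER and ERL1. The 5 epidermis markers summed to 553 and 770.0 CPM in myrBRX, 1316 and 885 in BRXL2, and 6193 and 1759 in the libraries labelled BRX, with none at 0. In BRX 1 most of that sum was PDF1, at 2929 CPM, and FDH, at 2509 CPM, whereas ATML1 stood at 90.1 to 132 CPM in all 6 libraries and CER1 was lowest in the libraries labelled BRX. No marker alone kept that order without overlap. PDF1 and PDF2 overlapped between BRXL2 and the libraries labelled BRX, and FDH between myrBRX and BRXL2. The mesophyll sum was also lowest in both myrBRX libraries. By mean the guard cell sum ran the other way, highest in myrBRX and lowest in the libraries labelled BRX. The share of counts from chloroplast and mitochondrial loci was 0.558% and 1.34%, 1.71% and 2.32%, and 5.34% and 3.77%. The part of any of these in the receptor levels was not tested.

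**Figure D3:**
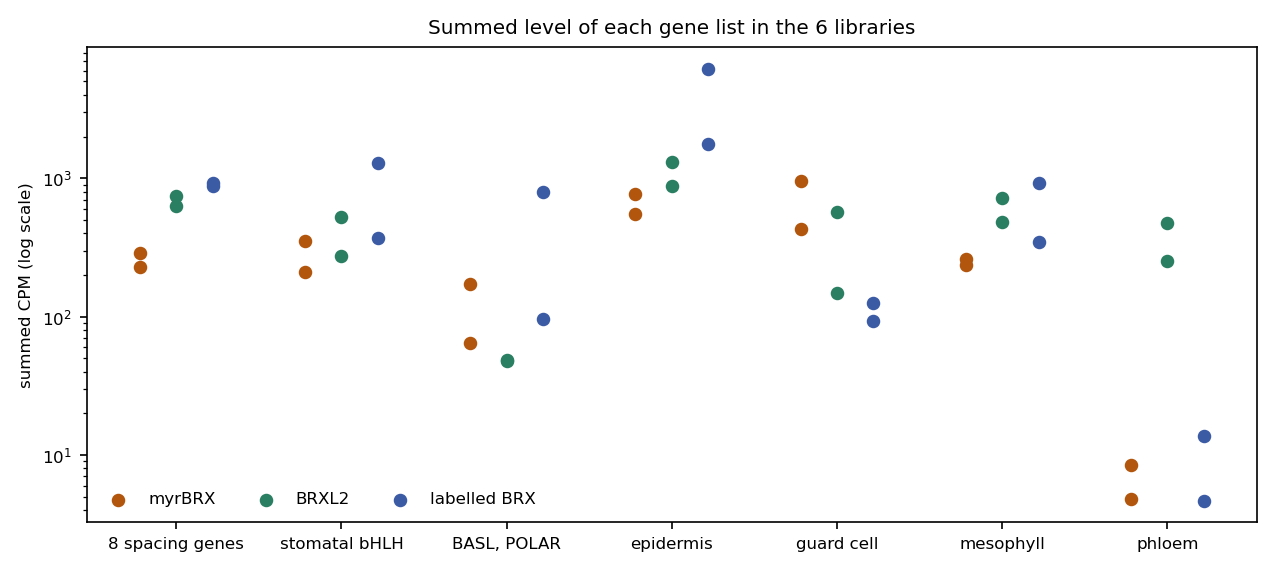
Summed CPM (log axis) of the 8 genes and of 6 marker lists, with 1 point per library in the order myrBRX, BRXL2, libraries labelled BRX. The sum of the 8 genes was 288 and 229 CPM in myrBRX, 743 and 634 in BRXL2, and 921 and 881 in the libraries labelled BRX. On total counts, that sum overlapped between BRXL2 and the libraries labelled BRX. The phloem list stood at 251 and 475 CPM in BRXL2 and at most 13.8 CPM elsewhere.

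As CPM per kilobase of exon (RPKM), a scale on which different genes can be compared, TMM had the highest level of the 8 in 6 of 6 libraries and EPFL9 the lowest in 5. In myrBRX the order by mean was TMM (62.3 ± 12.0 RPKM), ERL2 (14.4 ± 6.05), ER (11.7 ± 2.54), ERL1 (7.89 ± 2.04), SDD1 (4.56 ± 0.407), EPF2 (3.97 ± 2.84), EPF1 (2.05 ± 0.839) and EPFL9 (0.929 ± 0.968). Neighbours whose libraries overlapped there were ERL2 and ER, SDD1 and EPF2, EPF2 and EPF1, and EPF1 and EPFL9. In BRXL2 SDD1 came second at 55.4 ± 26.5 RPKM, after TMM at 139.6 ± 36.5 and before ERL2 at 38.7 ± 33.2 and ER at 24.2 ± 8.16, with overlap between SDD1 and ERL2 and between ERL2 and ER. ERL1 (11.8 ± 0.833), EPF1 (10.7 ± 4.10) and EPF2 (6.36 ± 5.59) followed and overlapped in turn. In the libraries labelled BRX the order was TMM (139 ± 52.5), ERL2 (69.1 ± 27.7), ER (66.3 ± 6.63), SDD1 (24.6 ± 14.9), ERL1 (18.8 ± 2.55), EPF2 (2.34 ± 2.01), EPFL9 (1.43 ± 2.02) and EPF1 (0.467 ± 0.336). There ERL2 overlapped ER, SDD1 overlapped ERL1, and EPFL9 overlapped both EPF2 and EPF1, while EPF2 lay above EPF1 in both libraries.

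The make-up of the kinases was computed on the same scale and within each library, so it does not depend on the scaling between libraries. ER took 35.0% and 33.8% of the summed kinase level in myrBRX, 20.1% and 52.1% in BRXL2, and 36.1% and 51.6% in the libraries labelled BRX. ERL1 took 16.6% and 31.7%, 12.2% and 21.5%, and 12.1% and 12.4%, and ERL2 the rest. The ER share differed more between the BRXL2 libraries than between lines. TMM stood at 1.83 and 1.83 times the summed kinase level in myrBRX, 1.24 and 2.88 times in BRXL2, and 0.594 and 1.28 times in the libraries labelled BRX, so that both myrBRX libraries were above both labelled BRX and within the range of BRXL2. Each kinase gene had at least 752 counts in every library. How reads that align to several places were counted was not given, so the split among these relatives is uncertain.

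SDD1, the protease gene, was low in both myrBRX libraries. It held 10.7 and 12.2 CPM in myrBRX, 186 and 92.1 CPM in BRXL2, and 88.2 and 35.3 CPM in the libraries labelled BRX. No line overlapped another on this scale, and the libraries of myrBRX lay within 1.02 CPM (SD) of a mean of 11.5. On total counts, not adjusted for composition, BRXL2 and the libraries labelled BRX overlapped. SDD1 stood there at 163 ± 114 CPM in BRXL2 and 71.0 ± 57.8 CPM in the libraries labelled BRX (SD). For myrBRX against BRXL2 the log2 fold change was -3.60 ± 0.88 (95% interval -5.52 to -1.68 for this gene alone; adjusted p = 0.21, edgeR), the lowest p of the 8 genes and rank 127 of 18174 loci. DESeq2 gave an adjusted p of 0.00143 and edgeR without a filter 0.0146, while over all alternatives it ran up to 0.659. The fold change ran from -4.01 (without BRXL2 2) to -3.00 (without BRXL2 1). For myrBRX against the libraries labelled BRX SDD1 had -2.43 ± 0.84 (adjusted p = 0.264), and ran from -2.93 (without BRX 2) to -1.62 (without BRX 1). DESeq2 gave 0.0454 there, and all alternatives 0.0454 to 0.878. For BRXL2 against the libraries labelled BRX it had 1.17 ± 0.80 (adjusted p = 0.725, edgeR), and ran from 0.58 (without BRXL2 1) to 1.98 (without BRX 1).

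Of the 5 phloem markers, 4 (APL, SEOR1, BAM3 and AHA3) stood highest in BRXL2, where SDD1 and EPF1 had their highest values, and SUC2 was lowest there by mean, at 5.49 CPM in myrBRX, 2.05 in BRXL2 and 6.08 in the libraries labelled BRX. Together they summed to 4.78 and 8.52 CPM in myrBRX, 475 and 251 in BRXL2, and 13.8 and 4.66 in the libraries labelled BRX. APL was at 0 in both libraries labelled BRX, and BAM3 was at 0 in BRX 2 and myrBRX 2. The 6 guard cell markers summed to 948 and 431 CPM in myrBRX, 572 and 148 in BRXL2, and 92.2 and 126 in the libraries labelled BRX, a sum mostly of TGG1. Of these, KAT1, KAT2 and TGG2 had their highest mean in BRXL2, and MYB60, OST1 and TGG1 in myrBRX. The part of phloem or guard cells in the SDD1 and EPF1 values was not tested.

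**Figure D4:**
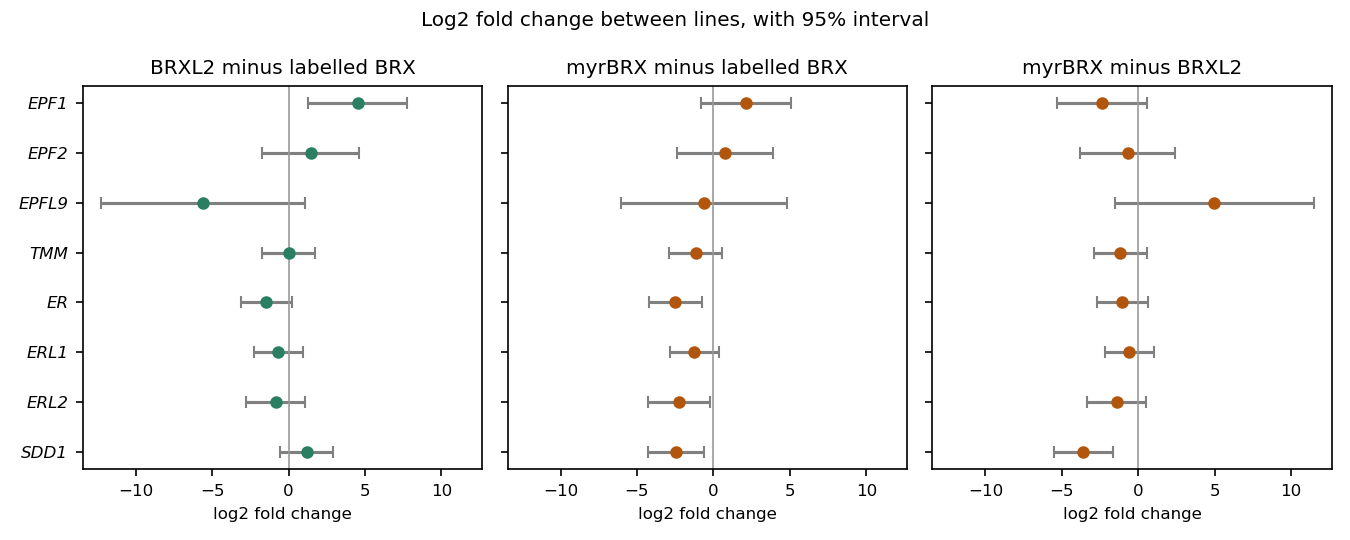
Log2 fold change (x axis) of the 8 genes in the 3 comparisons, points with 95% intervals from the edgeR fit, each for its gene alone. Only EPF1 in BRXL2 minus labelled BRX, ER, ERL2 and SDD1 in myrBRX minus labelled BRX, and SDD1 in myrBRX minus BRXL2 had intervals that left out 0; none passed the adjusted threshold.

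Over the 8 genes the median log2 fold change was -1.20 for myrBRX against the libraries labelled BRX (all tested loci -0.03), -1.10 for myrBRX against BRXL2 (all loci -0.15) and -0.33 for BRXL2 against the libraries labelled BRX (all loci 0.03). Both myrBRX libraries were below both labelled BRX in 5 of the 8 genes (TMM, ER, ERL1, ERL2 and SDD1), where 22.4% of loci were, and above them in EPF1, where 26.7% were. They were below both BRXL2 libraries in 5 (TMM, ER, ERL1, EPF1 and SDD1), against 24.7% of loci, and above them in EPFL9, against 24.3%. BRXL2 lay above the libraries labelled BRX in EPF1 and SDD1, against 18.3% of loci, and below them in ER and ERL1, against 14.9%. On total counts, SDD1 and ERL1 overlapped in that comparison. The comparisons share libraries pair by pair and are not independent of each other.

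The rest of the family and the pathway was read from lists. Of 8 further loci annotated as relatives of the EPF peptides, 2 were tested. AT1G71866 stood at 0.722 and 0.234 CPM in myrBRX, 2.83 and 4.34 in BRXL2, and 0.0305 and 1.79 in the libraries labelled BRX, and AT5G10310 held 0 and 0, 16 and 0, and 33 and 0 counts. AT4G37810 had 55 counts in BRXL2 1 and AT3G13898 had 6 in BRXL2 2, each with 0 elsewhere. CLL2 (EPFL4), CLL1 (EPFL5), CHAL (EPFL6) and AT1G80133 had 0 counts in all 6 libraries. AT1G71866 had a log2 fold change of -0.92 ± 1.92 for myrBRX against the libraries labelled BRX, -2.90 ± 2.03 for myrBRX against BRXL2 and 1.98 ± 1.96 for BRXL2 against the libraries labelled BRX. Neither of the 2 tested passed in any comparison (adjusted p of at least 0.421, edgeR). At an unadjusted p under 0.05 were 0 of them, against 8.85% to 14.2% of all loci in the comparisons.

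SERK1, SERK2, BAK1 and SERK4 encode co-receptor kinases that pair with the ERECTA family, and none passed (0 of 4 in each direction in each comparison, edgeR; median -1.76 for myrBRX against the libraries labelled BRX, -0.82 for myrBRX against BRXL2 and -1.24 for BRXL2 against the libraries labelled BRX). SERK1 stood at 5.06 and 4.27 CPM in myrBRX, 13.6 and 10.9 in BRXL2, and 17.3 and 28.8 in the libraries labelled BRX, in the same order of lines as ER and without overlap. Its log2 fold change was -2.30 ± 0.90 for myrBRX against the libraries labelled BRX (adjusted p = 0.295) and -1.39 ± 0.87 for myrBRX against BRXL2 (0.539). SERK2 was set by BRX 1, at 203 CPM against 2.53 to 5.27 CPM in the other 5 libraries, and had -4.92 ± 1.38 for myrBRX (adjusted p = 0.215) and -4.39 ± 1.35 for BRXL2 (0.426), each against the libraries labelled BRX. BAK1 had -1.56 ± 0.85 for BRXL2 against the libraries labelled BRX (0.619), and SERK4 -1.11 ± 0.93 for myrBRX against BRXL2 (0.659). ATSBT5.2 (AT1G20160), a subtilisin-type protease gene, failed the filter with 1 and 1 counts in myrBRX, 5 and 3 in BRXL2, and 51 and 0 in the libraries labelled BRX. At an unadjusted p under 0.05 the co-receptors were 2, 0 and 1 of 4 (edgeR), against 14.2%, 12.4% and 8.85% of all loci. These are for myrBRX against the libraries labelled BRX, myrBRX against BRXL2, and BRXL2 against the libraries labelled BRX.

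Below the receptors, 0 of the 7 genes of the kinase cascade passed in either direction in any comparison (edgeR). At an unadjusted p under 0.05 were 0, 1 and 0 of them, against 14.2%, 12.4% and 8.85% of all loci. These are for myrBRX against the libraries labelled BRX, myrBRX against BRXL2, and BRXL2 against the libraries labelled BRX. BSK1, a kinase gene that acts upstream of YODA, went against the receptors in both comparisons with myrBRX. It stood at 112 and 141 CPM in myrBRX, 17.3 and 20.4 in BRXL2, and 34.8 and 75.4 in the libraries labelled BRX. Both myrBRX libraries were above the other 4. BSK1 had a log2 fold change of 2.74 ± 0.81 for myrBRX against BRXL2 (adjusted p = 0.235) and -1.55 ± 0.77 for BRXL2 against the libraries labelled BRX (0.592). The latter had the same sign as ER, ERL1 and ERL2, while TMM stood at 0.01 in that comparison. MPK3, a MAP kinase at the end of the cascade, had -1.54 ± 0.83 for myrBRX against BRXL2 (0.477). MKK5, the kinase above it, had -1.49 ± 0.82 and YDA, the YODA gene itself, -1.23 ± 0.76 for myrBRX against the libraries labelled BRX (0.419 and 0.463), and MKK4 had 1.09 ± 0.99 for BRXL2 against the libraries labelled BRX (0.817). The median of the list was -0.67, -1.02 and 0.08 in the 3 comparisons.

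**Figure D5:**
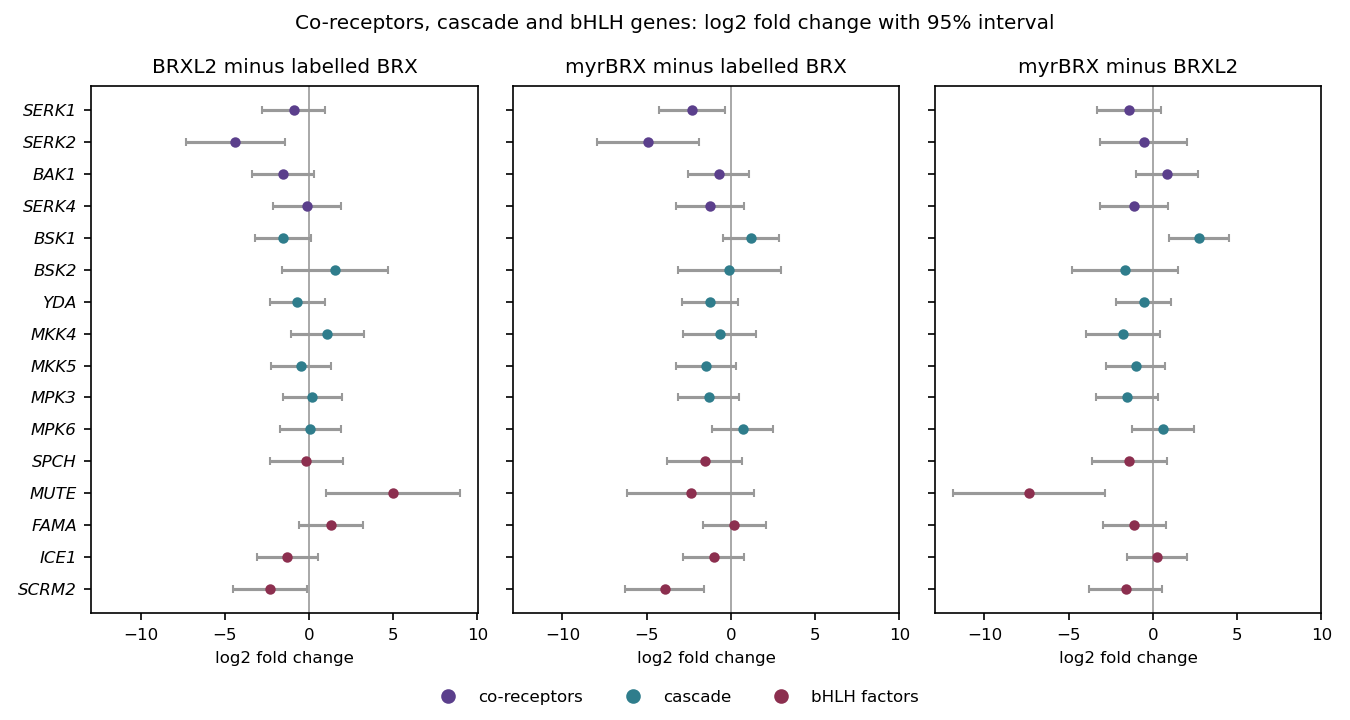
Log2 fold change (x axis) of co-receptor, cascade and bHLH genes in the 3 comparisons, points with 95% intervals from the edgeR fit. BSK1 lay at 2.74 in myrBRX minus BRXL2, opposite in sign to most of the cascade, and MUTE had the widest interval.

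The stomatal bHLH factors, on which the cascade acts, did not pass (0 of 5 in each direction, edgeR). At an unadjusted p under 0.05 were 1, 1 and 2 of them, against 14.2%, 12.4% and 8.85% of all loci. These are for myrBRX against the libraries labelled BRX, myrBRX against BRXL2, and BRXL2 against the libraries labelled BRX. MUTE, like EPF1, was highest in both BRXL2 libraries, at 13.4 and 11.1 CPM, against 0.0903 and 0.0521 CPM in myrBRX and 0.763 and 0 CPM in the libraries labelled BRX. MUTE had a log2 fold change of -7.37 ± 2.07 for myrBRX against BRXL2 (adjusted p = 0.225) and 4.99 ± 1.83 for BRXL2 against the libraries labelled BRX (0.486). EPF1 differed from MUTE in myrBRX, where EPF1 lay above the libraries labelled BRX and MUTE overlapped them. SPCH varied within lines, at 73.0 and 28.8 CPM in myrBRX, 224 and 42.0 in BRXL2, and 241 and 57.2 in the libraries labelled BRX, with -1.55 ± 1.02 for myrBRX against the libraries labelled BRX (0.490). SCRM2, a partner of SPCH, had -3.94 ± 1.08 for myrBRX against the libraries labelled BRX (0.207), -1.62 ± 0.99 for myrBRX against BRXL2 (0.528) and -2.32 ± 1.01 for BRXL2 against the libraries labelled BRX (0.549), with BRX 1 at 496 CPM and the other 5 libraries at 14.6 to 68.3 CPM. BASL and POLAR, which mark the polarity of these divisions, were not called either, with POLAR at 163 and 50.2 CPM in myrBRX, 30.7 and 40.1 in BRXL2, and 741 and 88.3 in the libraries labelled BRX. POLAR had -1.96 ± 1.05, 1.59 ± 1.04 and -3.55 ± 1.12 and BASL -1.53 ± 1.00, -0.18 ± 0.98 and -1.35 ± 1.00 for myrBRX against the libraries labelled BRX, myrBRX against BRXL2, and BRXL2 against the libraries labelled BRX (adjusted p of at least 0.404, edgeR). In the same order, 0, 0 and 1 of the 2 lay at an unadjusted p under 0.05, against 14.2%, 12.4% and 8.85% of all loci.

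Likeness of patterns was measured as the root mean square difference between 2 genes in log2 CPM over the 6 libraries, after each gene was centred on its own mean. Among the 28 pairs of the 8 genes, TMM and ERL1 were closest, at 0.52, followed by ER and ERL1 at 0.62 and TMM and ER at 0.71. EPF1 and EPFL9 were farthest apart, at 3.24, and EPF1 was 1.34 from EPF2. Over the 7804 genes with a symbol that were searched, the nearest to TMM was PEPKR1 (0.16), to ER GPAT8 (0.18), to ERL1 PP5.2 (0.15), to ERL2 SPPL1 (0.13) and to SDD1 IQD29 (0.21). For the peptides these were VTI13 for EPF1 (0.42), RGP1 for EPF2 (0.25) and UREF for EPFL9 (0.69). The median difference from all tested loci was 1.34 (ERL1) to 2.60 (EPFL9). With so many genes and 6 libraries, small differences arise for any gene, and these are descriptions.

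The 8 genes also varied to different degrees over the 6 libraries. The SD of log2 CPM was 0.60 for ERL1 and 0.67 for TMM, larger than in 8.52% and 11.8% of tested loci. It was 1.16 for ER, 1.20 for EPF2 and 1.26 for ERL2, larger than in 40.0%, 42.4% and 45.4% of loci, and 1.68 for SDD1, larger than in 65.4%. EPF1 had 2.07 and EPFL9 2.48, larger than in 80.1% and 90.4% of loci. For EPFL9 the gap between the libraries labelled BRX, at 5.71, was its whole range.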

How the data were processed

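The authors deposited 1 table of raw read counts per library, over TAIR10 loci; whole numbers and unequal totals show that nothing had been scaled. Per the submitters' processing notes, Bowtie2 was the aligner and TAIR10 the build. How reads were assigned to loci, by strand or with several hits, is not given in the sources used here. Libraries were made from 20 ng of amplified total RNA (Ovation RNA-Seq System V2), per the labels' protocols.

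Loci were filtered with filterByExpr (minimum count 10), scaled with trimmed-mean factors and fitted in edgeR 4.0.16 (R 4.3.3) with 1 coefficient per line over all 6 libraries, which left 3 residual degrees of freedom at a common dispersion of 0.781. Quasi-likelihood tests were two-sided and adjusted by Benjamini-Hochberg over all tested loci, with a threshold of 0.05. SE is the log2 fold change divided by the square root of F. DESeq2 1.42.0 and limma-voom (limma 3.58.1) were alternatives. Log2 CPM used a prior count of 2. The fit was tested on simulated counts, with a pass criterion only at a dispersion far below that of these libraries. That test does not show what the fit could detect here. Exon lengths, names and the overlap of ERL1 with its neighbour came from the TAIR10.1 annotation, which matched 32835 of the 33602 loci. All 8 names matched it, EPFL9 as STOMAGEN. The loci of 5 peptide relatives had no symbol there and are given by identifier. No library repeated another of its line (chi-square per gene 606 to 904). The members, lists and comparisons were chosen with earlier results of these data known. Named were the 8 members and, from each list, the called genes or otherwise the 2 of lowest p in each comparison; BAM3, APL and other markers, and values of other listed genes, were added after their values were seen.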

Additional observations from a re-analysis of the deposited data

How the results depend on the processing

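The 8 genes were called under few settings. DESeq2 called 2 of them for myrBRX against the libraries labelled BRX, 1 for myrBRX against BRXL2, 1 for BRXL2 against the libraries labelled BRX and 3 for any difference among the lines. Without a filter edgeR called 1 (SDD1) for myrBRX against BRXL2 and 1 (SDD1) for any difference. No other setting called any of the 8, leaving out each library in turn included. Where that leaves a line with 1 library, it is assumed to vary like the others.

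Counts over all loci moved widely. For myrBRX against the libraries labelled BRX, 0 loci were called (2578 at an unadjusted p under 0.05), against 724 without a filter, 29 with the replicate block, 1438 by DESeq2 and 1 to 327 with a library left out. For myrBRX against BRXL2, the count of 9 became 5 with RLE factors, 5 with upper-quartile factors, 657 without a filter, 0 with a minimum count of 30 (2117 unadjusted), 42 with the replicate block, 22 on the compared libraries alone, 1126 by DESeq2, 0 by limma-voom (2285 unadjusted) and 24 to 119 with a library left out. For BRXL2 against the libraries labelled BRX, 17 became 403 without a filter, 4 with a minimum count of 30, 33 with the replicate block, 0 on the compared libraries alone (1106 unadjusted), 644 by DESeq2, 0 by limma-voom (1310 unadjusted) and 6 to 221 with a library left out. For any difference, 41 became 1423 without a filter, 266 with the replicate block, 1453 by DESeq2, 0 by limma-voom and 130 to 661 with a library left out. The cause of these moves was not tested. The replicate numbers were shared only as numbers: differences between libraries 1 and 2 correlated at 0.127, 0.0581 and 0.121 between lines, across loci.

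Of the log2 fold changes of the 8 genes, 1 turned sign under another setting: EPFL9 in myrBRX against the libraries labelled BRX was 1.56 by limma-voom. With a library left out, EPFL9 ran from -2.57 to 8.10 there and from -8.67 to 3.12 for BRXL2 against the libraries labelled BRX. EPF2 ran from -0.28 to 2.11 for myrBRX against the libraries labelled BRX and from -1.70 to 0.73 for myrBRX against BRXL2, and TMM from -0.33 to 0.46 for BRXL2 against the libraries labelled BRX. The summed level of the 8 genes was 766 ± 289 CPM in BRXL2 and 960.0 ± 296 in the libraries labelled BRX on total counts (SD). It was 781 ± 291 and 1008 ± 322 CPM on totals without organelle loci. On total counts these lines overlapped, whereas the scaled sums, at 688 ± 77.0 and 901 ± 28.6 CPM, did not. EPF1, EPF2 and EPFL9 held at most 441 counts in any library, so depth adds to their uncertainty. The spread between libraries of a line, up to 2.07 on the log2 scale for EPF2, and 2 libraries per line limit all 8.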

Other observations

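The first library labelled BRX stood apart in several listed genes outside the spacing group. PDF1, a gene of the protoderm, was at 144 and 90.5 CPM in myrBRX, 658 and 381 in BRXL2, and 2929 and 584 in the libraries labelled BRX. POLAR, SERK2 and SCRM2, given above, and PDF2, a regulator of epidermal identity, at 649 CPM in BRX 1 and 66.8 to 162 CPM in the other 5 libraries, had their highest value in the same library. Of the 8 spacing genes, EPFL9, at 2.81 CPM in BRX 1 and at most 1.59 CPM elsewhere, ERL2, at 323 CPM in BRX 1 and 226 CPM in BRXL2 1, and ERL1, at 72.4 CPM in BRX 1 and 59.8 CPM in BRX 2, were highest in it, whereas TMM and ER were highest in BRX 2.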
